A study of Homo sapiens and Mus musculus with 36 samples.

Results

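The question addressed here is where loss of DOT1L changed gene expression differently in 2 mouse tumour lines, Hepa1-6, a hepatocellular carcinoma line, and LLC, the Lewis lung carcinoma line. The 12 RNA-seq libraries of these lines were used, of 36 in the series, which also holds the human line HuH-7 and the mouse line Hep53.4. In Hepa1-6 the groups were Dot1l_KO cells made with sgRNA#1 or sgRNA#2 (2 libraries each, 4 edited libraries in all) and WT cells that carried the control guide sgNeg2 (2 libraries). LLC had the same groups, again 4 edited libraries and 2 sgNeg2 libraries. All cells were untreated and were grown in DMEM with serum, and the labels do not say whether edited cells were clones or pools. Nothing in the labels says that the replicates were separate cultures, so the p-values measure the spread between these libraries, which may be technical.

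Reads per gene were compared as counts, and levels are given as CPM, a gene's counts relative to the composition-scaled total of its library. The change in a line is the log2 of edited over sgNeg2 libraries, with both guides pooled. The quantity followed throughout, called here the line difference, is the log2 change in Hepa1-6 minus the log2 change in LLC. A positive line difference therefore means that editing moved the gene further up, or less far down, in Hepa1-6 than in LLC. It was tested for every gene with edgeR's quasi-likelihood test, and a gene was called at a Benjamini-Hochberg adjusted p below 0.05.

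DOT1L is the enzyme that places methyl groups on a lysine in the globular core of histone H3, and it does so mainly along the bodies of transcribed genes. It works with AF9- and ENL-type reader proteins that also belong to transcription elongation complexes, and it is best known for keeping HOX genes active in leukaemias with MLL fusions. Dot1l editing is described in the series in connection with how strongly tumour cells expose themselves to the immune system, so genes of the interferon response and antigen presentation were followed beside metabolic, proliferative and lineage genes.

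The 12 libraries held between 45026791 and 59686358 counts over genes, and 13812 of 22673 gene symbols passed the filter on low counts. The summed level of 8 hepatocyte markers was 11680 to 11980 CPM in edited and 16070 to 16260 CPM in sgNeg2 Hepa1-6 libraries, against 8.86 to 10.1 CPM in edited and 7.58 to 7.64 CPM in sgNeg2 LLC libraries. Lung epithelial markers were low in LLC. The 7 markers summed to 1.85 to 2.59 CPM in edited and 1.06 to 1.15 CPM in sgNeg2 LLC libraries. In Hepa1-6 they summed to 3.17 to 4.44 CPM in edited and 3.25 to 3.66 CPM in sgNeg2 libraries. Nkx2-1 and Sftpd had 0 counts in every LLC library. Napsa made up most of the LLC sum, at 2.15 CPM in edited and 1.035 CPM in sgNeg2 libraries. Of 7 leukocyte markers, Cd68 made up most of the sum in both lines and Ptprc, the pan-leukocyte marker, was at or near 0.

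Dot1l itself was lower in every edited library, and further down in Hepa1-6. It had 16.7, 17.3, 16.1 and 14.8 CPM in edited Hepa1-6 libraries, against 47.4 and 43.1 CPM in sgNeg2 Hepa1-6 libraries. It had 31.2, 29.3, 31.7 and 32.8 CPM in edited LLC libraries, against 58.7 and 65.9 CPM in sgNeg2 LLC libraries. Edited and sgNeg2 libraries did not overlap in either line. The log2 change was -1.48 in Hepa1-6 and -0.996 in LLC, a line difference of -0.49 ± 0.10 (SE; adjusted p = 0.000774). DOT1L protein and its histone mark were not measured in these files.

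Most genes called in 1 line were not called in the same direction in the other. In Hepa1-6, 4066 genes were called (29.4% of genes tested), 1786 of which rose (12.9%) and 2280 fell (16.5%). In LLC, 3436 genes were called (24.9% of genes tested), 1992 of which rose (14.4%) and 1444 fell (10.5%). A change of at least 1 on the log2 scale was called for 241 genes in Hepa1-6 (1.74%) and for 378 in LLC (2.74%). The share of LLC calls that rose was 58.0% under TMM scaling and 50.6% under RLE scaling, and it was 47.8% when LLC was fitted without Hepa1-6 and 47.1% without Hepa1-6 sgRNA#1 replicate 2. Called in both lines were 1384 genes, and 859 of them moved the same way, which is 21.1% of the Hepa1-6 calls and 25.0% of the LLC calls. Genes called in 1 line alone were called for the line difference in 42.3% to 57% of cases, by line and direction. The others were not shown to differ between the lines. The changes of the lines, which share no control library, correlated weakly across genes (Pearson r = 0.100, Spearman rho = 0.126 over 13812 genes, which are not independent replicates).

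The line difference itself was called for 3307 genes (23.9% of genes tested), higher in Hepa1-6 for 1242 (8.99%) and lower in Hepa1-6 for 2065 (15.0%). The median over all genes was -0.04. The share of these calls that were higher was 37.6% under TMM scaling, 43.2% under RLE scaling and 43.6% with DESeq2. It was 43.7% without Hepa1-6 sgRNA#1 replicate 2. Lower calls were the more numerous in each of these fits, to a degree that varied with the scaling. At an absolute log2 of at least 1, which is a 2-fold difference between the lines' changes, there were 398 (2.88%), 116 higher and 282 lower. Of the called genes, 59 had risen in both lines and 98 had fallen in both, so that the lines differed there in degree. A further 830 had fallen in Hepa1-6 alone, 518 had risen in Hepa1-6 alone, 647 had risen in LLC alone and 411 had fallen in LLC alone. In 219 genes neither line's own change was called. Opposite movement, with the gene called in each line and for the line difference, was seen in 525 genes (3.80%): 347 fell in Hepa1-6 and rose in LLC, and 178 rose in Hepa1-6 and fell in LLC.

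**Figure D1:**
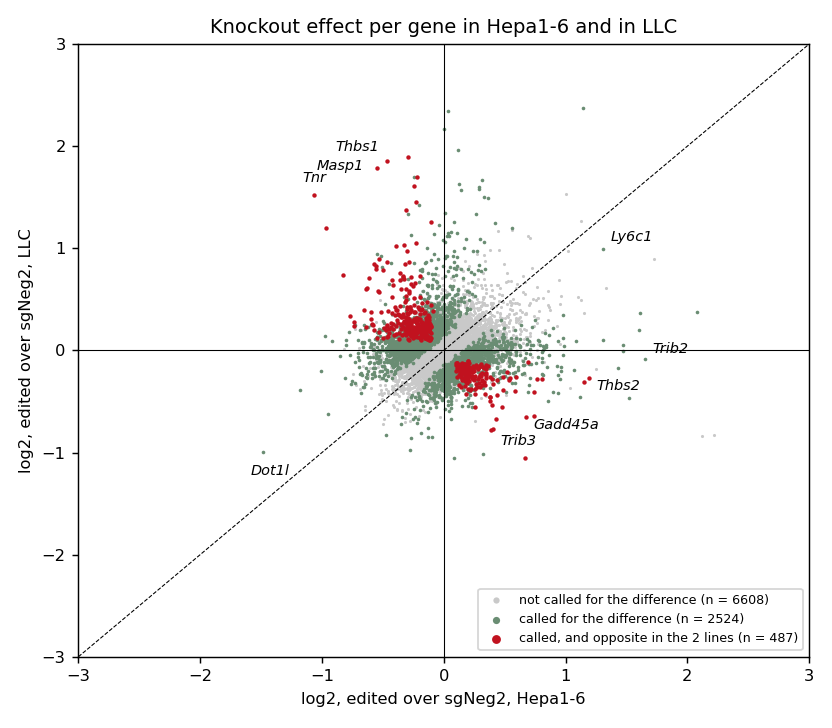
Log2 change on editing in Hepa1-6 (horizontal axis) against LLC (vertical axis) for the 9619 genes at 1 CPM or more in both lines, each point a gene, from 4 edited and 2 sgNeg2 libraries per line, with the dashed line marking equal change. The cloud does not follow the dashed line, and of the 3011 genes called for the line difference 487 (red) are called in both lines and lie in the upper left and lower right quadrants.

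Extracellular matrix genes were among the largest opposite movements. Thrombospondin 1 (Thbs1), a secreted matrix glycoprotein that activates latent TGF-beta, had 985, 982, 910.5 and 913 CPM in edited Hepa1-6 libraries, against 1324 and 1301 CPM in sgNeg2 Hepa1-6 libraries. It had 19.6, 20.1, 21.1 and 20.8 CPM in edited LLC libraries, against 5.81 and 5.46 CPM in sgNeg2 LLC libraries. Editing lowered an abundant transcript in Hepa1-6 and raised a scarce one in LLC, with no overlap of groups in either line. The log2 changes were -0.47 and 1.86, and the line difference was -2.33 ± 0.07 (SE; adjusted p = 6.43e-17). Its paralog thrombospondin 2 (Thbs2), an inhibitor of blood vessel growth, moved the other way round. Thbs2 had 18.4, 17.2, 20.5 and 20.7 CPM in edited Hepa1-6 libraries, against 7.95 and 8.95 CPM in sgNeg2 Hepa1-6 libraries. Thbs2 was at 311, 312, 322 and 327 CPM in edited LLC libraries, against 374 and 391 CPM in sgNeg2 LLC libraries. Here editing raised the scarcer transcript, that of Hepa1-6, and lowered the abundant one of LLC, and the line difference was 1.46 ± 0.09 (SE; adjusted p = 4.24e-11).

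Tenascin R (Tnr), a matrix glycoprotein best known from the nervous system, had the most negative line difference of the genes that met the level rule, -2.59 ± 0.15 (SE; adjusted p = 1.94e-11). It had 23.1, 25.4, 27.5 and 27.6 CPM in edited Hepa1-6 libraries, against 55.3 and 53.01 CPM in sgNeg2 Hepa1-6 libraries. Tnr was at 5.95, 5.67, 5.61 and 4.89 CPM in edited LLC libraries, against 1.86 and 1.97 CPM in sgNeg2 LLC libraries. All 4 edited libraries were below both sgNeg2 libraries in Hepa1-6 and above them in LLC. Masp1, a protease of the lectin pathway of complement, followed the same order. It had 10.5, 10.01, 11.1 and 11.7 CPM in edited Hepa1-6 libraries, against 15.03 and 16.6 CPM in sgNeg2 Hepa1-6 libraries. Masp1 had 2.98, 2.61, 2.27 and 2.44 CPM in edited LLC libraries, against 0.779 and 0.719 CPM in sgNeg2 LLC libraries. The fall in Hepa1-6 was modest beside the rise in LLC, and the line difference was -2.33 ± 0.22 (SE; adjusted p = 4.22e-08). Tmem252, a transmembrane protein, had 49.2, 50.2, 51.7 and 51.2 CPM in edited Hepa1-6 libraries, against 61.1 and 62.9 CPM in sgNeg2 Hepa1-6 libraries. Its levels were 2.79, 3.38, 3.03 and 3.4 CPM in edited LLC libraries, against 0.912 and 0.788 CPM in sgNeg2 LLC libraries. Again the groups did not overlap in either line, and the line difference was -2.19 ± 0.15 (SE; adjusted p = 2.50e-10). Masp1 and Tmem252 were under 1 CPM in sgNeg2 LLC libraries and met the level rule of 1 CPM in LLC only with the edited libraries included.

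**Figure D2:**
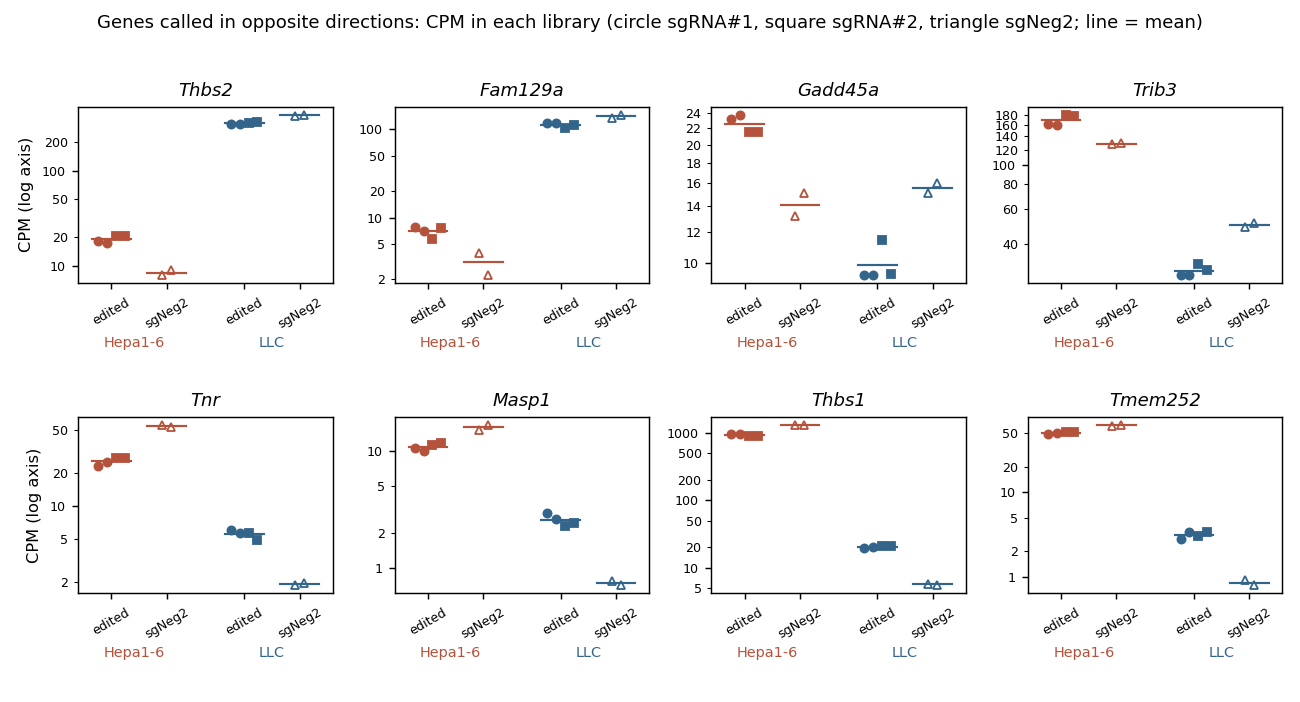
Level in CPM (log axis) of the 8 genes with the largest opposite movements, 4 each way, in every library, with edited libraries left of sgNeg2 libraries and Hepa1-6 left of LLC. Within each line the edited and sgNeg2 points of a gene do not overlap. The step between them points up in 1 line and down in the other, which is how the genes were chosen.

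Of the 42 tested genes of a list of mesenchymal transition and matrix genes, 7 had a higher and 10 a lower line difference. Those shares, 16.7% and 23.8%, stand beside 8.99% and 15.0% of all genes. In the list, 9 genes moved in opposite directions. The list's median line difference was -0.21, beside -0.04 over all genes. For its 25 members at 1 CPM or more in both lines (means over 6 libraries, edited ones included) the median was -0.0045, with 7 higher and 8 lower. Beside the thrombospondins, 3 members were picked out after their values were seen: fibronectin (Fn1), Tgfbi, a matrix protein named for its induction by TGF-beta, and Vim, the mesenchymal filament protein. Fn1 had log2 changes of -0.54 in Hepa1-6 and 0.58 in LLC, with a line difference of -1.12 ± 0.07 (SE; adjusted p = 5.41e-11). Tgfbi had log2 changes of -0.23 and 1.05, with a line difference of -1.28 ± 0.09 (SE; adjusted p = 4.42e-10). Fn1 and Tgfbi fell in Hepa1-6 and rose in LLC, while Vim rose by 0.17 in Hepa1-6 and fell in LLC (log2 -0.35). Decorin (Dcn), a small matrix proteoglycan, had 67 counts over the 4 edited LLC libraries and 0 over the 2 sgNeg2 LLC libraries, at least 10.8-fold higher against a floor of 3 counts over the group, and it fell in Hepa1-6 (log2 -0.28). The summed level of 8 fibroblast and endothelial markers was 356 to 371 CPM in edited and 436 to 449 CPM in sgNeg2 Hepa1-6 libraries, and 157 to 170.4 CPM in edited and 131 to 138 CPM in sgNeg2 LLC libraries. Dcn made up most of that sum in Hepa1-6, at 347 CPM in edited and 419.5 CPM in sgNeg2 libraries, and the receptor Pdgfra most of it in LLC, at 126 CPM in edited and 98.2 CPM in sgNeg2 libraries. Its part in the other matrix results was not tested. Collagens had 4 higher and 6 lower line differences among 19 tested (21.1% and 31.6%), with a median of -0.48. For the 9 collagens at 1 CPM or more in both lines the direction turned, with 4 higher, 3 lower and a median of 0.17. Their largest differences, in Col1a2, Col1a1 and Col3a1, rest on levels of a few CPM or less in at least 1 line, and Col1a2 and Col3a1 were no longer called without Hepa1-6 sgNeg2 replicate 2 (line differences -3.69 and -2.40, and -2.11 and -0.81 without that library). Among 23 integrins and laminins, 2 were higher and 6 lower (8.7% and 26.1%). Itgb3, the integrin chain that pairs with alpha V to bind vitronectin, averaged 39.9 ± 2.71 CPM in edited and 55.2 ± 1.74 CPM in sgNeg2 Hepa1-6 libraries (mean ± SD, n = 4 and 2, here and in later averages). The LLC averages were 3.14 ± 0.245 CPM in edited and 1.72 ± 0.0116 CPM in sgNeg2 libraries, and the line difference was -1.34 ± 0.14 (SE; adjusted p = 3.22e-07).

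Several genes with large negative line differences moved in LLC with little or no change in Hepa1-6. Of those given here, Plek2, Igf2bp1 and Epn3 were under 1 CPM in sgNeg2 LLC libraries and reached the minimum of 1 CPM in LLC only with the edited libraries included, so the level rule itself favoured a rise there. Plek2, a pleckstrin family protein of actin remodelling, had 27.8, 27.4, 29.7 and 27.8 CPM in edited Hepa1-6 libraries, against 28.8 and 27.6 CPM in sgNeg2 Hepa1-6 libraries. Its levels were 1.56, 2.18, 1.6 and 2.08 CPM in edited LLC libraries, against 0.38 and 0.445 CPM in sgNeg2 LLC libraries. Its Hepa1-6 groups overlapped and its Hepa1-6 change was not called, and the line difference was -2.17 ± 0.23 (SE; adjusted p = 2.72e-07). Igf2bp1, an RNA-binding protein of fetal and tumour cells, averaged 73.8 ± 3.2 CPM in edited and 68.00 ± 2.09 CPM in sgNeg2 Hepa1-6 libraries. In LLC Igf2bp1 averaged 2.04 ± 0.322 CPM in edited and 0.519 ± 0.0893 CPM in sgNeg2 libraries, with a line difference of -1.84. The change in Hepa1-6 was not called for Igf2bp1. Transglutaminase 2 (Tgm2), a protein crosslinking enzyme, averaged 961 ± 30.9 CPM in edited and 1141 ± 10.4 CPM in sgNeg2 Hepa1-6 libraries. The LLC averages were 7.000 ± 0.934 CPM in edited and 2.3 ± 0.27 CPM in sgNeg2 libraries, with a line difference of -1.86. Epn3, an epsin of clathrin-mediated uptake, had log2 changes of -0.22 in Hepa1-6 and 1.69 in LLC. The Hepa1-6 fall of Epn3 was not called without Hepa1-6 sgNeg2 replicate 1 (log2 change -0.17).

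On the positive side, Trib2, a pseudokinase of the Tribbles family, had the largest line difference that met the level rule, 1.73 ± 0.18 (SE; adjusted p = 3.69e-07). It had 7.3, 6.37, 5.03 and 6.04 CPM in edited Hepa1-6 libraries, against 2.37 and 1.5 CPM in sgNeg2 Hepa1-6 libraries. Trib2 was at 57.5, 61.5, 64.4 and 65.1 CPM in edited LLC libraries, against 65.3 and 66.3 CPM in sgNeg2 LLC libraries. The rise was seen in all 4 edited Hepa1-6 libraries, and the LLC change was not called. Dhrs9, a retinol dehydrogenase, rose in both lines but further in Hepa1-6, by 2.08 against 0.37 in LLC, although its Hepa1-6 level averaged only 1.72 ± 0.283 CPM in edited and 0.404 ± 0.00887 CPM in sgNeg2 libraries. Its LLC rise was not called without either sgNeg2 library (0.35 and 0.40 without replicates 1 and 2). Fam129a, a stress-responsive protein also known as Niban, had 7.89, 6.97, 5.73 and 7.58 CPM in edited Hepa1-6 libraries, against 3.99 and 2.23 CPM in sgNeg2 Hepa1-6 libraries. Fam129a had 118, 119, 105 and 111 CPM in edited LLC libraries, against 133 and 147 CPM in sgNeg2 LLC libraries. Its LLC fall (log2 -0.31) was near the threshold and was not called without any single LLC library, while the line difference of 1.46 ± 0.21 (SE; adjusted p = 0.000293) was called in each of these fits. Prex1, an exchange factor for the GTPase Rac, had log2 values of 1.07 in Hepa1-6 and -0.19 in LLC, and Spsb4, a substrate adaptor of a ubiquitin ligase, of 1.47 and 0.05. The LLC change was not called for either of them. Dhrs9, Prex1 and Spsb4 were under 1 CPM in sgNeg2 Hepa1-6 libraries and met the level rule in Hepa1-6 only with the edited libraries included.

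Genes of the ATF4 branch of the stress response, which raises amino acid synthesis and stress-response genes when translation is restrained, held more higher than lower line differences. Of 29 tested members of a list of ATF4 targets and unfolded protein response genes, 11 had a higher and 3 a lower line difference. Those shares, 37.9% and 10.3%, stand beside 8.99% and 15.0% of all genes. In the list, 5 genes moved in opposite directions, and the median was 0.03. In Hepa1-6, 7 rose and 13 fell, and in LLC 1 rose and 19 fell. Trib3, a pseudokinase induced by ATF4, had 162, 159.6, 180.2 and 178 CPM in edited Hepa1-6 libraries, against 128 and 129 CPM in sgNeg2 Hepa1-6 libraries. Its levels were 27.9, 28.00, 31.6 and 29.6 CPM in edited LLC libraries, against 48.5 and 51.2 CPM in sgNeg2 LLC libraries. Edited libraries were above sgNeg2 libraries in Hepa1-6 and below them in LLC without overlap, and the line difference was 1.17 ± 0.08 (SE; adjusted p = 1.68e-10). Chac1, which degrades glutathione, had 8.49, 8.79, 11.6 and 8.99 CPM in edited Hepa1-6 libraries, against 7.39 and 7.82 CPM in sgNeg2 Hepa1-6 libraries. It had 8.01, 7.81, 8.14 and 8.79 CPM in edited LLC libraries, against 16.5 and 16.5 CPM in sgNeg2 LLC libraries. Its fall in LLC was called and its Hepa1-6 change was not (log2 0.32), with a line difference of 1.33 ± 0.17 (SE; adjusted p = 4.35e-06). Mthfd2, a mitochondrial enzyme of folate metabolism, had log2 changes of 0.54 in Hepa1-6 and -0.27 in LLC, with a line difference of 0.81 ± 0.06 (SE; adjusted p = 3.14e-09). Atf4 itself, picked out after its values were seen, had log2 changes of 0.33 in Hepa1-6 and -0.31 in LLC, with a line difference of 0.63 ± 0.05 (SE; adjusted p = 5.14e-09). Gadd45a, a growth arrest and DNA damage response gene that is also a stress target, had 23.3, 23.8, 21.5 and 21.5 CPM in edited Hepa1-6 libraries, against 13.1 and 15.05 CPM in sgNeg2 Hepa1-6 libraries. It had 9.36, 9.34, 11.5 and 9.39 CPM in edited LLC libraries, against 15.1 and 15.97 CPM in sgNeg2 LLC libraries. It rose in Hepa1-6 and fell in LLC without overlap, with a line difference of 1.33 ± 0.14 (SE; adjusted p = 3.57e-07). The endoplasmic reticulum chaperone Calr was on the other side, with log2 values of -0.27 in Hepa1-6 and -0.03 in LLC (not called in LLC). Ern1, the sensor kinase of the unfolded protein response, fell in both lines, with log2 changes of -0.95 in Hepa1-6 and -0.62 in LLC.

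Transcripts of the protein synthesis and respiratory machinery moved apart as well, each by a small step. Of 66 cytosolic ribosomal protein genes, 55 had a higher (83.3%, beside 8.99% of all genes) and 0 a lower line difference, and the median was 0.32. In Hepa1-6, 25 rose and 0 fell, in LLC 1 rose and 50 fell, and 19 moved in opposite directions. Their summed level was 105592 to 111706 CPM in edited and 98704 to 105524 CPM in sgNeg2 Hepa1-6 libraries, ranges that adjoin. In LLC the sum was 118680 to 130433 CPM in edited and 141999 to 147052 CPM in sgNeg2 libraries. Rpl17, a protein of the large subunit, averaged 1163 ± 6.81 CPM in edited and 955 ± 47.7 CPM in sgNeg2 Hepa1-6 libraries. In LLC Rpl17 averaged 796 ± 39.7 CPM in edited and 899.9 ± 35.1 CPM in sgNeg2 libraries, with a line difference of 0.46 ± 0.06 (SE; adjusted p = 6.11e-06). Without Hepa1-6 sgNeg2 replicate 1, 6 of the 66 rose in Hepa1-6, and without LLC sgNeg2 replicate 1, 23 fell in LLC, while the line difference was higher for 45 in each of these fits. Ribosomal protein genes have many near-identical pseudogene copies, so their counts are uncertain.

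Of 37 nuclear genes of oxidative phosphorylation, 22 had a higher (59.5%, beside 8.99% of all genes) and 0 a lower line difference. The median was 0.21. In Hepa1-6, 23 rose and 1 fell, and in LLC 4 rose and 10 fell. Cox6c, a subunit of cytochrome c oxidase, had 179.9, 181, 189 and 198 CPM in edited Hepa1-6 libraries, against 119 and 143 CPM in sgNeg2 Hepa1-6 libraries. Cox6c had 129, 140.0, 146 and 152 CPM in edited LLC libraries, against 169 and 160.0 CPM in sgNeg2 LLC libraries. The Hepa1-6 rise of Cox6c was larger than its LLC fall, and the line difference was 0.73 ± 0.10 (SE; adjusted p = 4.20e-05). Ndufa4, a small subunit of the respiratory chain, had log2 values of 0.46 in Hepa1-6 and -0.06 in LLC (not called in LLC), and Ndufa1, of complex I, of 0.34 and -0.23. The LLC fall of Cox6c and that of Ndufa1 were not called without LLC sgNeg2 replicate 1 (-0.17 and -0.18). Without Hepa1-6 sgNeg2 replicate 1 the list's line difference was higher for 12 and its Hepa1-6 rises numbered 10, and without LLC sgNeg2 replicate 1 it was higher for 13.

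Cell cycle genes went the other way. Of 44 tested, 1 had a higher and 24 a lower line difference (2.27% and 54.5%, beside 8.99% and 15.0% of all genes). The median was -0.25, and 10 moved in opposite directions. In LLC 33 rose (75%, beside 14.4% of all genes) and 2 fell, and in Hepa1-6 4 rose and 14 fell. The rises in LLC numbered 17 without LLC sgNeg2 replicate 1 and 18 without replicate 2, and the falls in Hepa1-6 numbered 8 without Hepa1-6 sgNeg2 replicate 1. Mki67, the proliferation antigen, had 130.5, 134, 121 and 121 CPM in edited Hepa1-6 libraries, against 157 and 165 CPM in sgNeg2 Hepa1-6 libraries. Its levels were 289.9, 284, 240.2 and 252 CPM in edited LLC libraries, against 197 and 227 CPM in sgNeg2 LLC libraries. Edited libraries lay below the sgNeg2 libraries in Hepa1-6 and above them in LLC, with a line difference of -0.68 ± 0.11 (SE; adjusted p = 0.000682). Without LLC sgNeg2 replicate 1 the LLC rise of Mki67 was not called (0.23). Cdc6, a replication licensing factor, had 24.9, 24.2, 23.6 and 23.9 CPM in edited Hepa1-6 libraries, against 32.4 and 32.1 CPM in sgNeg2 Hepa1-6 libraries. It had 66.6, 64.3, 61.6 and 60.4 CPM in edited LLC libraries, against 54.9 and 54.2 CPM in sgNeg2 LLC libraries. The line difference of Cdc6 was -0.63 ± 0.08 (SE; adjusted p = 2.46e-06), and its LLC rise was not called without LLC sgNeg2 replicate 2 (0.21). Cdkn1a, the CDK inhibitor p21, also had a negative line difference. It had 729, 737, 718 and 684 CPM in edited Hepa1-6 libraries, against 679 and 657 CPM in sgNeg2 Hepa1-6 libraries. Cdkn1a was at 29.1, 29.7, 27.5 and 30.1 CPM in edited LLC libraries, against 16.3 and 17.1 CPM in sgNeg2 LLC libraries. Its LLC rise was called and its Hepa1-6 change was not (log2 0.10), with a line difference of -0.70 ± 0.06 (SE; adjusted p = 1.94e-08). Whether the cells differed in growth rate was not measured.

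**Figure D3:**
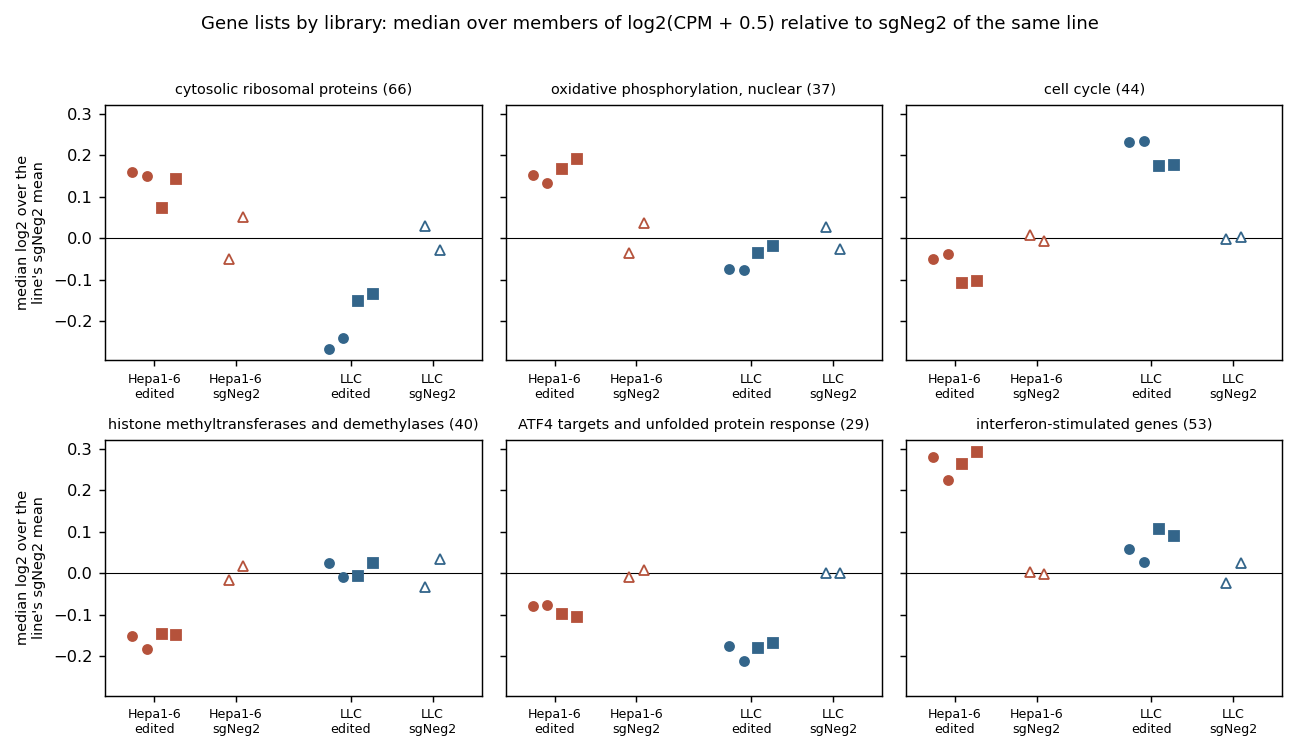
Median over list members of log2(CPM + 0.5) relative to the mean of the line's sgNeg2 libraries, for 6 gene lists with the number of members in brackets, 1 point per library (circles sgRNA#1, squares sgRNA#2, triangles sgNeg2). Ribosomal protein genes are above 0 in all 4 edited Hepa1-6 libraries (0.071 to 0.16) and below 0 in all 4 edited LLC libraries (-0.27 to -0.14), while cell cycle genes are below 0 in edited Hepa1-6 and above 0 in edited LLC libraries.

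Genes that act with DOT1L or modify histones had negative line differences wherever these were called. Of 25 genes of DOT1L-containing and elongation complexes, 0 had a higher and 11 a lower line difference (44% lower, beside 15.0% of all genes, median -0.17). In Hepa1-6, 2 rose and 13 fell, and in LLC 1 rose and 1 fell. Without Hepa1-6 sgNeg2 replicate 1 the falls in Hepa1-6 numbered 7. Ccnt1, the cyclin of the elongation kinase P-TEFb, had 23.3, 23.4, 22.2 and 21.7 CPM in edited Hepa1-6 libraries, against 33.98 and 39.7 CPM in sgNeg2 Hepa1-6 libraries. Ccnt1 was at 13.4, 15.6, 14.4 and 13.97 CPM in edited LLC libraries, against 14.7 and 15.3 CPM in sgNeg2 LLC libraries. The groups were apart in Hepa1-6 and overlapped in LLC, with a line difference of -0.64 ± 0.12 (SE; adjusted p = 0.000281). Kmt2a, the histone methyltransferase MLL, had 63.4, 63.5, 61.8 and 58.8 CPM in edited Hepa1-6 libraries, against 93.7 and 90.98 CPM in sgNeg2 Hepa1-6 libraries. Its levels were 102, 102, 93.7 and 95.4 CPM in edited LLC libraries, against 91.95 and 114 CPM in sgNeg2 LLC libraries. The line difference of Kmt2a was -0.51 ± 0.09 (SE; adjusted p = 0.000142). Aff4, a scaffold of the super elongation complex, had log2 values of -0.34 in Hepa1-6 and 0.11 in LLC (not called in LLC). Among 40 histone methyltransferases and demethylases, 0 were higher and 18 lower for the line difference (45% lower, beside 15.0% of all genes, median -0.20). In Hepa1-6 0 rose and 22 fell, and in LLC 7 rose and 3 fell. Without LLC sgNeg2 replicate 1, 10 of the 40 were lower for the line difference. Nsd1, which methylates another lysine of histone H3, had log2 values of -0.15 in Hepa1-6 and 0.37 in LLC, and Setd2, which marks transcribed gene bodies, of -0.26 and 0.21. HOX genes, the best known DOT1L targets, had 2 higher and 2 lower line differences among 22 tested (18.2% called, beside 23.9% of all genes). Only 5 of the 22 were at 1 CPM or more in both lines. The median Hepa1-6 level of the 22 was 0.0387 CPM, so a Hepa1-6 change could not be measured well for many. In LLC 0 rose and 6 fell, and in Hepa1-6 0 rose and 2 fell. Hoxa10 averaged 9.65 ± 1.98 CPM in edited and 10.6 ± 1.11 CPM in sgNeg2 Hepa1-6 libraries, and 12.9 ± 1.3 CPM in edited and 23.2 ± 0.877 CPM in sgNeg2 LLC libraries. Its line difference of 0.72 ± 0.19 (SE; adjusted p = 0.00751) was not called without Hepa1-6 sgNeg2 replicate 2 (0.61). Pbx3, a HOX cofactor, fell in both lines and further in Hepa1-6, with log2 changes of -0.76 in Hepa1-6 and -0.33 in LLC.

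**Figure D4:**
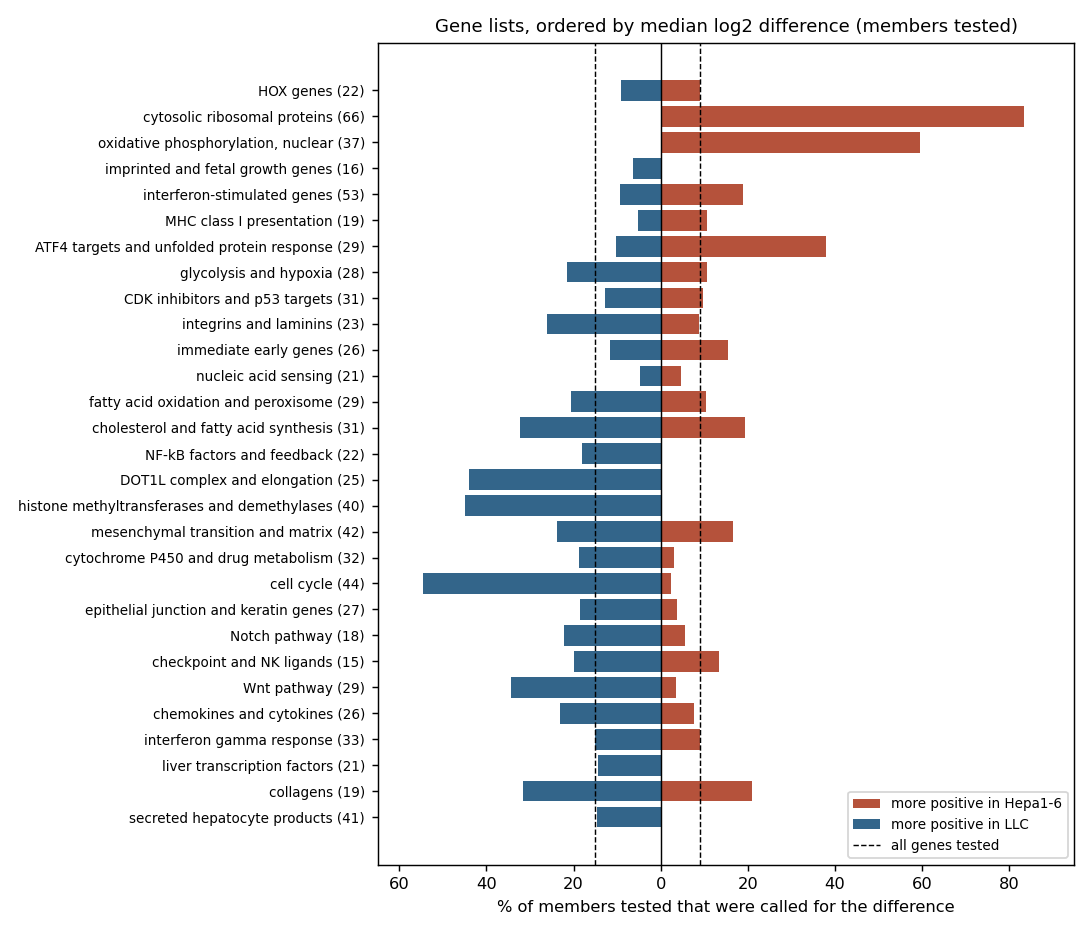
Percent of tested members called for the line difference in each list of over 14 tested members (number in brackets), bars to the right for a more positive change in Hepa1-6 and to the left for a more positive change in LLC, lists ordered by median line difference. The dashed lines mark the shares over all genes tested (8.99% and 15.0%), which ribosomal protein and oxidative phosphorylation genes exceed on the right and cell cycle and histone methyltransferase genes on the left.

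Liver lineage genes that changed in Hepa1-6 mostly fell, and most were under 1 CPM in at least 1 line. Of 21 liver transcription factors, whose median level in LLC was 0.131 CPM, 0 had a higher and 3 a lower line difference. That is 14.3% lower, near the 15.0% of all genes. All 3 were among the 7 at 1 CPM or more in both lines. Over all genes at 1 CPM or more in both lines, 12.1% were higher and 19.2% lower. In Hepa1-6 0 rose and 9 fell, and in LLC 2 rose and 0 fell. Foxa2, a pioneer factor of endoderm and liver, had 74.96, 76.9, 72.7 and 73.2 CPM in edited Hepa1-6 libraries, against 111 and 112 CPM in sgNeg2 Hepa1-6 libraries. It had 8.35, 7.96, 9.08 and 8.48 CPM in edited LLC libraries, against 7.05 and 7.19 CPM in sgNeg2 LLC libraries. The Hepa1-6 libraries fell into separate groups, with a line difference of -0.83 ± 0.09 (SE; adjusted p = 2.81e-07). The small LLC rise of Foxa2 was not called without LLC sgNeg2 replicate 1 or 2 (0.24 and 0.27). Rxra, the partner of many nuclear receptors, had log2 values of -0.38 in Hepa1-6 and 0.09 in LLC (not called in LLC), with a line difference of -0.47 ± 0.06 (SE; adjusted p = 4.44e-06). Of 41 secreted hepatocyte products, with a median LLC level of 0.0206 CPM, 0 were higher and 6 lower (14.6%, near the 15.0% of all genes). In Hepa1-6, 2 of the 41 rose and 16 fell. Of the 5 at 1 CPM or more in both lines 4 were lower, and their median line difference was -0.67. Lbp, which carries bacterial lipopolysaccharide in plasma, had log2 values of -0.04 in Hepa1-6 (not called) and 1.23 in LLC, with a line difference of -1.27 ± 0.09 (SE; adjusted p = 7.97e-10). Albumin (Alb), picked out after its values were seen, averaged 6206 CPM in edited and 9052 CPM in sgNeg2 Hepa1-6 libraries and had 0 counts in all LLC libraries, so it has no line difference. Among 32 genes of cytochrome P450 and drug metabolism 1 was higher and 6 lower (21.9% called, near the 23.9% of all genes). Gstm1, a glutathione transferase, had log2 values of -0.69 in Hepa1-6 and -0.09 in LLC (not called in LLC).

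In the Wnt pathway 1 of 29 genes was higher and 10 were lower (3.45% and 34.5%, beside 8.99% and 15.0% of all genes). Rnf43, a ubiquitin ligase that removes Wnt receptors and is itself induced by Wnt, averaged 101 ± 2.38 CPM in edited and 163 ± 1.8 CPM in sgNeg2 Hepa1-6 libraries. The LLC averages were 1.7 ± 0.426 CPM in edited and 1.49 ± 0.0199 CPM in sgNeg2 libraries, with a line difference of -0.89 ± 0.17 (SE; adjusted p = 0.000519). Of 18 Notch pathway genes 1 was higher and 4 were lower (27.8% called, near the 23.9% of all genes). The receptor Notch1 had 59.7, 62.5, 54.7 and 58.9 CPM in edited Hepa1-6 libraries, against 79.2 and 79.3 CPM in sgNeg2 Hepa1-6 libraries. Notch1 was at 12.8, 12.4, 9.47 and 11.4 CPM in edited LLC libraries, against 6.99 and 7.33 CPM in sgNeg2 LLC libraries. It fell in Hepa1-6 and rose in LLC without overlap, with a line difference of -1.12 ± 0.12 (SE; adjusted p = 4.37e-07). Hes1, a repressor induced by Notch, moved in the same directions, with log2 changes of -0.36 in Hepa1-6 and 0.69 in LLC, and the Hepa1-6 fall was not called without Hepa1-6 sgNeg2 replicate 1 (-0.21). Among 26 immediate early genes 4 were higher and 3 lower (26.9% called, also near that share). Fos, a subunit of the AP-1 factor, had 80.6, 80.03, 70.3 and 71.6 CPM in edited Hepa1-6 libraries, against 94.1 and 93.04 CPM in sgNeg2 Hepa1-6 libraries. Fos had 5.58, 6.29, 5.69 and 4.84 CPM in edited LLC libraries, against 2.24 and 2.07 CPM in sgNeg2 LLC libraries. The line difference of Fos was -1.68 ± 0.14 (SE; adjusted p = 4.69e-09). Fosb followed with -0.18 in Hepa1-6 and 0.41 in LLC.

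Lipid and sugar metabolism held differences of both signs. Of 31 genes of cholesterol and fatty acid synthesis, 6 had a higher and 10 a lower line difference (51.6% called, beside 23.9% of all genes). Insig1, which retains the sterol sensor in the endoplasmic reticulum, had log2 changes of 0.27 in Hepa1-6 and -0.36 in LLC, with a line difference of 0.63 ± 0.10 (SE; adjusted p = 9.03e-05). Acly, which makes cytosolic acetyl-CoA, moved the other way, with log2 changes of -0.28 in Hepa1-6 and 0.16 in LLC, with a line difference of -0.44 ± 0.05 (SE; adjusted p = 5.32e-07). Of 28 glycolysis and hypoxia genes 3 were higher and 6 lower (32.1% called), and the lactate dehydrogenase Ldha had log2 values of 0.05 in Hepa1-6 (not called) and 0.46 in LLC. Gapdh, which has many pseudogene copies and is therefore uncertain, averaged 1675 ± 169 CPM in edited and 865 ± 50.01 CPM in sgNeg2 Hepa1-6 libraries. In LLC Gapdh averaged 685 ± 130.1 CPM in edited and 830.2 ± 3.84 CPM in sgNeg2 libraries. Its line difference was 1.23 ± 0.25 (SE; adjusted p = 0.00749), not called with sgRNA#1 alone. Of 29 genes of fatty acid oxidation and peroxisomes 3 were higher and 6 lower (31.0% called).

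Interferon-stimulated genes that changed in Hepa1-6 mostly rose, with differences of both signs between the lines. Of 53 tested, 10 had a higher and 5 a lower line difference (18.9% and 9.43%, beside 8.99% and 15.0% of all genes), and the median was 0.07. Of the 30 at 1 CPM or more in both lines, 9 were higher and 3 lower. In Hepa1-6 24 rose (45.3%, beside 12.9% of all genes) and 2 fell. In LLC 13 rose (24.5%, beside 14.4% of all genes) and 6 fell. Without LLC sgNeg2 replicate 1 the LLC rises numbered 5. Irf7, the factor that amplifies type I interferon, had 229, 224, 213 and 211 CPM in edited Hepa1-6 libraries, against 166 and 167 CPM in sgNeg2 Hepa1-6 libraries. Irf7 had 1.39, 1.48, 1.75 and 1.45 CPM in edited LLC libraries, against 1.79 and 2.55 CPM in sgNeg2 LLC libraries. It rose in Hepa1-6 and fell in LLC, where its level was far lower than in Hepa1-6, with a line difference of 0.93 ± 0.14 (SE; adjusted p = 4.20e-05). Without LLC sgNeg2 replicate 2 the LLC fall of Irf7 was not called (-0.24). Irf1, an interferon gamma target, went against Irf7. It had 94.2, 89.4, 86.8 and 89.6 CPM in edited Hepa1-6 libraries, against 113 and 110.4 CPM in sgNeg2 Hepa1-6 libraries. Irf1 was at 13.1, 15.2, 13.9 and 13.9 CPM in edited LLC libraries, against 9.31 and 10.1 CPM in sgNeg2 LLC libraries. The line difference of Irf1 was -0.84 ± 0.09 (SE; adjusted p = 2.08e-07), with no overlap in either line. Usp18, a brake on interferon signalling, rose in LLC by 1.38, with a Hepa1-6 change of 0.05 that was not called. The LLC rise of Usp18 lay at a low level, 1.08 CPM in edited and 0.409 CPM in sgNeg2 libraries on average. Ifitm1, a membrane protein that restricts viruses, had 71 counts over the 4 edited Hepa1-6 libraries and 0 over the 2 sgNeg2 libraries, at least 12.4-fold higher against a floor of 3 counts over the group, and it rose by 1.17 in LLC.

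Spp1, Cxcl10, Ccl5, Ccl2, Cxcl1, B2m, H2-K1, H2-D1, Nlrc5, Tap1, Isg15, Ifit1, Ifit3, Mx1, Ifih1 and Gbp2, the rest of an immune panel, were tested and not called for the line difference, and Has2 and Cxcl9 were under the filter on low counts. Ccl5, Ifit1, Ifit3, Mx1, Ifih1 and Gbp2 averaged under 1 CPM in LLC, so their line differences were poorly measured (SE 0.50 for Ifit1 and 0.59 for Gbp2). For these genes the lack of a call does not show a like change in the lines. Several panel genes moved in at least 1 line. Osteopontin (Spp1) rose in both, by 0.34 in Hepa1-6 and 0.31 in LLC, with a line difference of 0.03 ± 0.07 (SE; adjusted p = 0.835). Cxcl10, a T cell attractant, had 56.9, 57.2, 59.4 and 55.4 CPM in edited Hepa1-6 libraries, against 45.4 and 46.5 CPM in sgNeg2 Hepa1-6 libraries. Cxcl10 had 1.47, 2.01, 1.27 and 1.32 CPM in edited LLC libraries, against 1.06 and 1.64 CPM in sgNeg2 LLC libraries. Its Hepa1-6 rise was not called without Hepa1-6 sgNeg2 replicate 1 (0.30), and its LLC change was not called. The ubiquitin-like Isg15 rose by 0.50 in Hepa1-6 and had a log2 of 0.32 in LLC (not called), and Mx1, an antiviral GTPase, rose by 1.00 in Hepa1-6 and had 0 counts in every LLC library. That Mx1 rise was not called without Hepa1-6 sgNeg2 replicate 1 (0.79). For H2-K1, the class I heavy chain, Hepa1-6 levels were near 0, with 0.159, 0.0866, 0.0211 and 0.0394 CPM in edited Hepa1-6 libraries, against 0.0373 and 0.0663 CPM in sgNeg2 Hepa1-6 libraries, so its line difference is not measurable here. B2m and H2-D1, the light chain and the other classical class I heavy chain, fell in LLC, with log2 changes of -0.23 and -0.16, and their Hepa1-6 changes of -0.11 and -0.03 were not called. The B2m fall was not called without LLC sgNeg2 replicate 1 or 2 (-0.21 and -0.25), nor that of H2-D1 without LLC sgNeg2 replicate 1 (-0.14). Of 19 genes of class I presentation 2 had a higher and 1 a lower line difference. Those shares, 10.5% and 5.26%, stand beside 8.99% and 15.0% of all genes, so the list as a whole did not stand out. Its member Tap2, a subunit of the peptide transporter, had log2 values of 0.31 in Hepa1-6 and -0.16 in LLC (not called in LLC), with a line difference of 0.47 ± 0.09 (SE; adjusted p = 0.000283). Cd274, the checkpoint ligand PD-L1, had 4.69, 3.51, 4.59 and 4.78 CPM in edited Hepa1-6 libraries, against 3.06 and 4.44 CPM in sgNeg2 Hepa1-6 libraries. Its levels were 2.45, 2.34, 2.12 and 2.39 CPM in edited LLC libraries, against 3.32 and 3.32 CPM in sgNeg2 LLC libraries. Its line difference of 0.75 ± 0.25 (SE; adjusted p = 0.0335) was near the threshold, and it was not called without either sgNeg2 library of LLC (both 0.75), Hepa1-6 sgNeg2 replicate 1 (0.50), Hepa1-6 sgRNA#1 replicate 1 (0.72), Hepa1-6 sgRNA#2 replicate 2 (0.70) or LLC sgRNA#2 replicate 1 (0.71).

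The remaining lists had between 6.25% and 41.7% of their members called, beside 23.9% of all genes. Fibroblast and endothelial markers (41.7%), checkpoint and NK ligands (33.3%), chemokines and cytokines (30.8%) and interferon gamma response genes (24.2%) were above that share, and the other 9 lists were below it. Of 33 interferon gamma response genes 3 were higher and 5 lower, of 26 chemokines and cytokines 2 and 6, of 15 checkpoint and NK ligands 2 and 3, of 21 nucleic acid sensing genes 1 and 1, and of 22 NF-kB factors 0 and 4. Of 31 CDK inhibitors and p53 targets 3 were higher and 4 lower, of 27 epithelial junction and keratin genes 1 and 5, of 16 imprinted and fetal growth genes 0 and 1, of 12 fibroblast and endothelial markers 0 and 5, and of 12 leukocyte markers 1 and 1. Of 11 DNA methylation writers and erasers 0 were higher and 2 lower, of 11 lung epithelial markers 0 and 1, and of 7 class II presentation genes 1 and 0. Nt5e, the ectoenzyme CD73 that makes adenosine, averaged 30.4 ± 1.37 CPM in edited and 25.3 ± 1.43 CPM in sgNeg2 Hepa1-6 libraries. The LLC averages were 6.62 ± 0.804 CPM in edited and 2.61 ± 0.47 CPM in sgNeg2 libraries, where it rose, with a line difference of -1.07 ± 0.16 (SE; adjusted p = 4.16e-05). Casp4, the sensor of intracellular lipopolysaccharide, had log2 changes of 0.76 in Hepa1-6 and -0.89 in LLC, with a line difference of 1.65 ± 0.32 (SE; adjusted p = 0.000448). Its LLC level was low, averaging 0.658 CPM in edited and 1.22 CPM in sgNeg2 libraries. Its Hepa1-6 rise was not called without Hepa1-6 sgNeg2 replicate 2 (0.51), nor its LLC fall without LLC sgNeg2 replicate 1 (-0.71). Ripk1, a kinase of inflammatory and death signalling, had log2 values of -0.13 in Hepa1-6 (not called) and 0.43 in LLC.

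For genes whose level differed most between the lines, the sign of the line difference went with which line expressed the gene more. The 9619 genes at 1 CPM or more in both lines, of which 31.3% were called, were sorted by the ratio of the line means over 6 libraries each. These means include the 4 edited libraries, so a gene's change could itself move it over the minimum or into another class. Among the 124 genes more than 16-fold higher in Hepa1-6, the median line difference was -0.47, with 6 higher and 69 lower calls. Of these 124 genes, 70 rose and 13 fell in LLC. Among the 49 genes more than 16-fold higher in LLC the median was 0.31, with 24 higher and 1 lower calls, and 18 rose in Hepa1-6 and 18 fell in LLC. Between these ends the medians ran through -0.17, -0.13, -0.04, -0.02, -0.03, 0.05 and 0.21 from the Hepa1-6 side to the LLC side, and the 6350 genes within 2-fold lay at -0.02. In the Hepa1-6-high set the library medians over sgNeg2 were 0.31 to 0.40 in the 4 edited LLC libraries, against -0.01 and 0.01 in the sgNeg2 LLC libraries. In the LLC-high set they were 0.18 to 0.28 in the 4 edited Hepa1-6 libraries, against 0.01 and -0.01 in sgNeg2 Hepa1-6 libraries. The sort was therefore repeated, after the data had been seen, on levels that leave the edited libraries out. With levels from the 2 sgNeg2 libraries of each line the median line difference was -0.49 for 134 genes more than 16-fold higher in Hepa1-6 and 0.38 for 46 genes more than 16-fold higher in LLC. The sgNeg2 libraries are still part of the change, so levels were also taken from 1 sgNeg2 replicate and the change in log2(CPM + 0.5) from the other. With levels from replicate 1 the medians at the ends were -0.47 (132 genes) and 0.41 (52 genes), and with levels from replicate 2 they were -0.44 (134 genes) and 0.31 (52 genes).

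**Figure D5:**
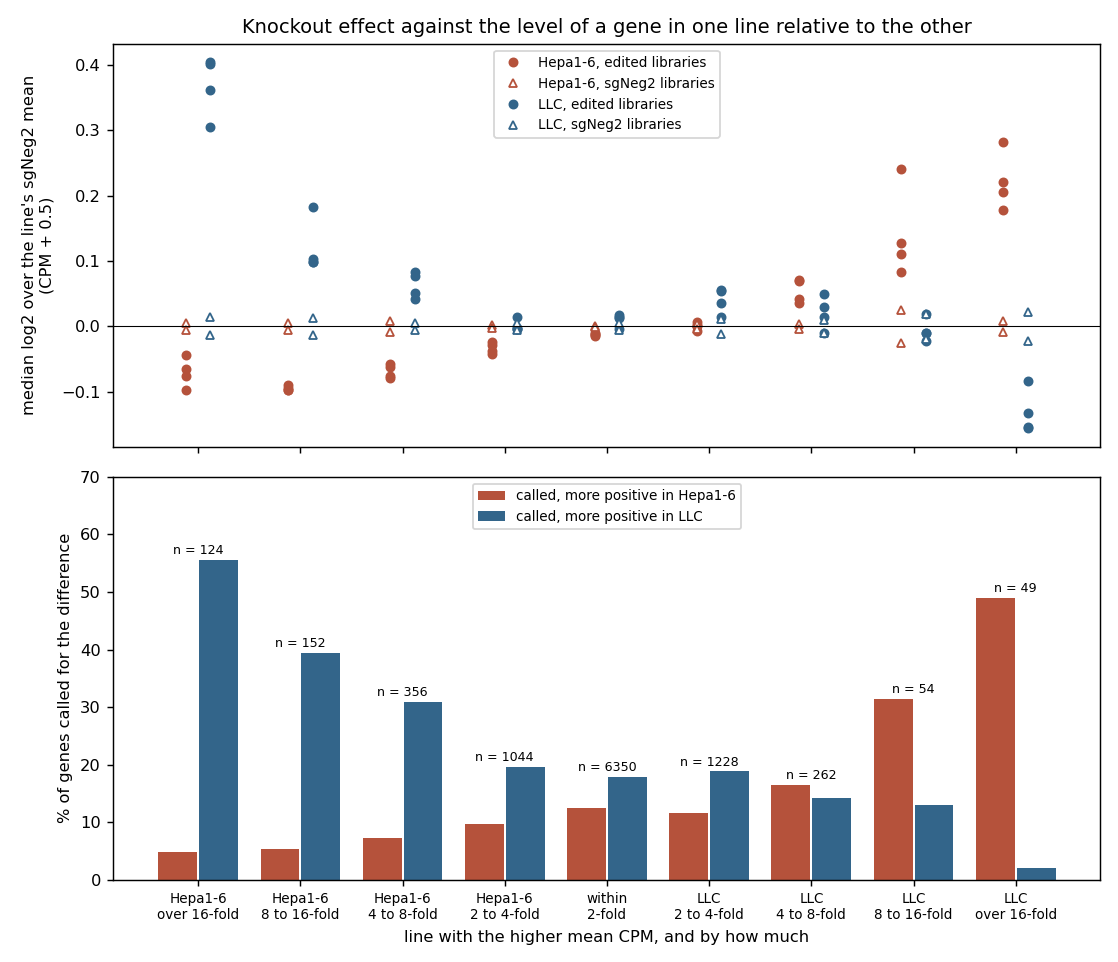
Genes at 1 CPM or more in both lines, binned by which line had the higher mean level over its 6 libraries and by how much. The upper panel gives the median log2(CPM + 0.5) over the line's sgNeg2 mean for each library, and the lower panel the percent of genes called for the line difference in each direction with the number of genes per bin. Edited LLC libraries are highest, at 0.31 to 0.40, for genes over 16-fold higher in Hepa1-6, and edited Hepa1-6 libraries, at 0.18 to 0.28, for genes over 16-fold higher in LLC.

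Among genes at a like low level in a line, the share that rose differed with the level in the other line. With levels taken from the sgNeg2 libraries, a choice made after seeing the data, 66 of 143 LLC genes at 1 to 4 CPM (46.2%) rose when their level was more than 8-fold higher in Hepa1-6, against 81 of 731 (11.1%) when the lines were within 8-fold. Of Hepa1-6 genes at 1 to 4 CPM, 22 of 61 (36.1%) rose when the level was more than 8-fold higher in LLC, against 110 of 799 (13.8%) within 8-fold. In LLC the share that fell was larger too, 4.2% against 1.23% within 8-fold. The contrast was weaker at 16 to 64 CPM. There 28.1% of 32 LLC genes more than 8-fold higher in Hepa1-6 rose and 25% fell, against 15.3% and 11.7% within 8-fold. Only 6 Hepa1-6 genes at 16 to 64 CPM were more than 8-fold higher in LLC, of which 1 rose and 4 fell. These shares are a description, with no test of their difference. The same sgNeg2 libraries set the levels and entered the change here, and the split by sgNeg2 replicate was not repeated for these shares. At 5 CPM or more in both lines by the means over 6 libraries, a limit also chosen after seeing the data, the medians at the ends were -0.56 (35 genes, 0 higher and 24 lower) and 0.31 (15 genes, 11 higher and 0 lower). Transcripts typical of 1 line were at low levels in libraries of the other. Alb, among the most abundant Hepa1-6 transcripts, had 0 counts in all LLC libraries. By their sgNeg2 means, 54 genes were at 200 CPM or more in Hepa1-6 and over 1000-fold lower in LLC. They summed to 7.28 to 8.25 CPM in edited and 4.04 to 4.08 CPM in sgNeg2 LLC libraries, against 60514 CPM in Hepa1-6. Genes chosen as low in the sgNeg2 LLC libraries tend to be lower there than in edited ones, whatever editing did. The other way round, 11 such genes of LLC summed to 0.906 to 2.89 CPM in edited and 0.727 and 2.43 CPM in sgNeg2 Hepa1-6 libraries, so edited and sgNeg2 libraries overlapped there. Whether such traces, or gene length and base composition, had a part in this pattern was not tested.

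Called in the same direction in both lines were 859 genes. That count needs a call in each line, so it cannot be weighed against the 3307 genes called for the line difference by 1 test. Ly6c1, a membrane antigen of the Ly6 family, had 56.6, 50.9, 48.98 and 44.8 CPM in edited Hepa1-6 libraries, against 18.8 and 21.9 CPM in sgNeg2 Hepa1-6 libraries. Its levels were 45.3, 48.02, 44.1 and 43.9 CPM in edited LLC libraries, against 23.8 and 21.8 CPM in sgNeg2 LLC libraries. Edited libraries lay above sgNeg2 libraries in both lines. Its line difference of 0.32 ± 0.11 (SE; adjusted p = 0.0431) was near the threshold and was not called without Hepa1-6 sgNeg2 replicate 1 (0.21) or LLC sgNeg2 replicate 1 (0.25), among others. Aqp8, a water and peroxide channel, rose by 1.02 in Hepa1-6 and 0.98 in LLC, where it was under 1 CPM in sgNeg2 libraries, and Akap12, an anchor of protein kinase A, by 0.65 and 0.73. Their line differences were 0.04 and -0.08, which were not called, and the LLC rise of Aqp8 was not called without LLC sgNeg2 replicate 2 (0.76). Nptx1, a neuronal pentraxin, fell in both, with log2 changes of -0.65 in Hepa1-6 and -0.59 in LLC.

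Some of the largest changes lay in genes that only 1 line expressed above 1 CPM, where the line difference could not be measured well. In Hepa1-6 the trefoil factor Tff3 had 24.8, 23.7, 25.1 and 27.9 CPM in edited Hepa1-6 libraries, against 6.98 and 9.52 CPM in sgNeg2 Hepa1-6 libraries. Wif1, a secreted Wnt inhibitor, had 36.4, 35.2, 31.96 and 35.5 CPM in edited Hepa1-6 libraries, against 73.5 and 77.8 CPM in sgNeg2 Hepa1-6 libraries, and 0 counts in every LLC library. Prox1, a homeobox factor of liver and lymphatic development, had 35.7, 34.2, 31.98 and 35.5 CPM in edited Hepa1-6 libraries, against 76.2 and 72.97 CPM in sgNeg2 Hepa1-6 libraries, with 2 counts in all LLC libraries together. These groups did not overlap, with Tff3 raised and Wif1 and Prox1 lowered. In LLC the protease-like Prss35 had 63.5, 63.2, 57.8 and 59.2 CPM in edited LLC libraries, against 17.3 and 16.8 CPM in sgNeg2 LLC libraries, while its Hepa1-6 level averaged 0.0531 CPM in edited and 0.168 CPM in sgNeg2 libraries. Nptxr, a pentraxin receptor, had 6.94, 4.77, 5.55 and 5.52 CPM in edited LLC libraries, against 10.4 and 10.8 CPM in sgNeg2 LLC libraries, and Hoxd10 had 22.3, 23.1, 21.6 and 22.8 CPM in edited LLC libraries, against 39.9 and 37.6 CPM in sgNeg2 LLC libraries, both with 0 counts in every Hepa1-6 library. Here too the groups did not overlap, with Prss35 raised and Nptxr and Hoxd10 lowered in edited cells.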

How the data were processed

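RNA-seq libraries of edited and sgNeg2 cells of Hepa1-6 and LLC were analysed from the deposited counts per gene. Per the submitters' processing notes, Trim Galore, HISAT2 2.2.1, SAMtools 1.9 and DESeq2 1.36.0 were used, with mm10 among the builds. Which tool counted the reads, and on which gene models, is not given in the sources used here, so near-identical genes and overlapping genes are uncertain, and strand use is not known. The library kit was a total-RNA kit, per the labels' protocols. Files of Hepa1-6 sgNeg2 held 1721 blank lines each, which were dropped.

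Counts were scaled by TMM and filtered by filterByExpr (minimum count 10, minimum total 15). They were then fitted in R 4.3.3 with edgeR 4.0.16 (robust quasi-likelihood) and limma 3.58.1, with 1 coefficient for each line and genotype and both guides pooled, and tested by contrasts. CPM were taken after TMM scaling. Each line had 2 sgNeg2 libraries, which limits the precision. In simulated data made from the counts of 13812 genes, 100 genes were given a 2-fold and 100 a 4-fold line difference. All of them were drawn from genes at 1 CPM or more in both lines. Of these, 98.0% and 100% were recovered, with 11 false calls (5.26% of calls). Recovery was not simulated for smaller differences or for genes under 1 CPM in a line.

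Replicates differed by more than sampling noise in every pair (chi-square per degree of freedom of at least 5.20), so none was counted as a duplicate. Genes are named by these rules: an immune panel of 24 genes, the 8 largest line differences each way, the 4 largest opposite movements each way, the 3 largest shared changes each way, the 3 largest changes in genes of 1 line, and the 3 largest called members of each list with at least 3 called. Some genes that these rules name are not reported here. The largest changes needed a mean of at least 5 CPM over 12 libraries and 1 CPM in each line, edited libraries included. The comparison and the 34 gene lists were chosen with earlier results of these data known. DESeq2 1.42.0, RLE scaling, no filter, each guide alone, a fit with guides as groups, a replicate block, a joint fit of 18 mouse libraries and leaving out each library were tried as alternatives.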

Additional observations from a re-analysis of the deposited data

Results flagged for a closer look

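The change on editing differed between Hepa1-6 and LLC, by a test of the difference itself, for 3307 genes, among them 525 genes that moved in opposite directions and Dot1l, with a line difference of -0.49. Every gene called for the line difference meets the same criterion, and the values of those named stand with their comparisons.

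Among 210 sets of 4 edited libraries examined, 6 had a library that stood apart from the others by Dixon's criterion at the 95% level, which chance gives for about 1 in 20. Cd274 was 3.51 CPM in Hepa1-6 sgRNA#1 replicate 2, with 4.59 to 4.78 CPM in the other edited Hepa1-6 libraries. Chac1 was 11.6 CPM in Hepa1-6 sgRNA#2 replicate 1, with 8.49 to 8.99 CPM in the others. Gadd45a was 11.5 CPM in LLC sgRNA#2 replicate 1, with 9.34 to 9.39 CPM in the others. P4ha2, a collagen prolyl hydroxylase, was 37.6 CPM in LLC sgRNA#1 replicate 2, with 36.1 to 36.4 CPM in the others. Rpl36 was 881 CPM in Hepa1-6 sgRNA#2 replicate 1, with 957 to 961 CPM in the others. Rn45s, the precursor of ribosomal RNA, was 23200 CPM in Hepa1-6 sgRNA#1 replicate 2, with 3010 to 3820 CPM in the others.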

How the results depend on the processing

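The number of line differences called was 3307 and lay between 2762 (sgRNA#2 alone) and 3949 (guides as groups) over the other fits, with 398 at an absolute log2 of at least 1. Without single libraries it was 2184 (without LLC sgNeg2 replicate 1) to 3360, and 1698 genes (51.4%) were called the same way without each of the 12 libraries. Calls in genes with no group at 0 counts, a limit added after seeing the data, numbered 3221. The Hepa1-6 calls were 241 at an absolute log2 of at least 1, and without single libraries 2457 (without Hepa1-6 sgNeg2 replicate 1) to 4069. The LLC calls were 378 at an absolute log2 of at least 1, and without single libraries 1880 (without LLC sgNeg2 replicate 1) to 3512. Opposite movements (opposite calls) numbered 525, and 273 (without LLC sgNeg2 replicate 1) or 311 (without Hepa1-6 sgNeg2 replicate 1) to 563 without single libraries. The cause of these moves was not tested, beyond the single sgNeg2 library that then remains in a line and is taken to vary like the other groups. Dot1l kept a negative line difference, -0.60 to -0.37, in every fit.

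The replicate numbers did not pair the libraries: the deviations of same-numbered libraries correlated by 0.09 to 0.14 in Hepa1-6 and by -0.05 to 0.11 in LLC. With a replicate block, 3163 line differences, 3906 Hepa1-6 changes, 3290 LLC changes and 476 opposite calls were made, and Dot1l had -0.49.

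Genes whose line difference changed sign were not called, apart from Prss35. For sgRNA#1 alone the values were -0.046 for Cxcl10, 0.015 for Ccl5 and -0.28 for Aqp8. For sgRNA#2 alone they were -0.090 for Spp1, -0.050 for B2m and -0.83 for H2-K1. Without single libraries the values ran from -0.21 (without LLC sgNeg2 replicate 2) to 0.42 for Cxcl10, from -0.55 to 0.045 (without LLC sgNeg2 replicate 1) for Ccl5, from -0.057 (without Hepa1-6 sgNeg2 replicate 1) to 0.35 for Ccl2 and from -0.21 to 0.79 for H2-K1. They ran from -0.97 to 0.16 for Ifit1, from -0.20 to 0.26 for Aqp8, from -0.26 to 0.075 for Akap12, from -4.34 to 0.54 for Tff3 and from -4.45 to 2.69 (without Hepa1-6 sgNeg2 replicate 1) for Prss35, whose Hepa1-6 level is near 0.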
